A study of Mus musculus with 8 samples.

Results

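The 10 genes described here encode the 5 NF-kB subunits (Nfkb1, Nfkb2, Rel, Rela and Relb), 3 IkB inhibitors (Nfkbia, Nfkbib and Nfkbie) and 2 feedback and survival genes (Tnfaip3 and Birc3). They were taken by symbol from an expression table of 23234 genes, and all 10 were found and passed the filter on low values that left 10610 genes to be tested. The libraries came from donor germinal centre B cells of mouse spleen on a C57BL/6 background. The donors called dKO here were Bach2(f/f) and those called sKO were Bach2(+/+), where Bach2 encodes a transcriptional repressor of B cells. Both were Prdm1(f/f) (Prdm1 encodes the plasma cell factor Blimp1), and both carried the tamoxifen-inducible ERT2cre(KI/+) and the NP-binding receptor allele B1-8hi(KI/+). Floxed Prdm1 was thus shared by all 4 groups, with none that kept it intact. Naive donor B cells were placed in wild-type recipients, which were given tamoxifen (3 mg for 3 days) and then immunized with NP-CGG in alum. On day 10 the NP-binding, GL7-positive and CD38-negative donor cells were sorted from the pooled spleens of 5 recipients as light zone (LZ, CD86 high and CXCR4 low) or dark zone (DZ, CD86 low and CXCR4 high) cells. The 4 groups, dKO LZ, sKO LZ, dKO DZ and sKO DZ, had 2 libraries each, made from about 30000 cells. The ages of the animals and the promoter that drives the Cre were not given in the sources used here, and the recipients kept their own Bach2-sufficient T cells and other cells.

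NF-kB factors are pairs of subunits that share a Rel homology domain and bind kappaB sites in DNA. In resting cells IkB proteins hold them in the cytoplasm. Antigen receptor and CD40 signals activate the IKK complex, which marks the IkB proteins for degradation and frees RELA and c-REL pairs (the canonical pathway). CD40 and BAFF receptor signals also stabilize the kinase NIK, which drives processing of the Nfkb2 product and frees RELB pairs (the non-canonical pathway). Several of these genes, among them Nfkbia, Tnfaip3, Nfkb2 and Relb, are themselves NF-kB targets, so that the pathway feeds back on itself. Germinal centre B cells meet antigen and T cell help in the light zone, where NF-kB activity is known to be highest.

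Promoter windows are shown for the genes that held a match to the 10-base NF-kB consensus GGGRNNYYCC (R is A or G, Y is C or T, N is any base). This stricter form was added to the motifs planned at the outset, which are given after it. Each window runs 5′ to 3′ on the gene's strand, from 250 bases before to 50 bases after an annotated transcript start in RefSeq on GRCm38.p6, a later build than the mm9 named for the expression values. The windows are those of Nfkb2 (chr19:46304487-46304786, plus strand), Rel (chr11:23770920-23771219, minus strand), Nfkbia (chr12:55492598-55492897, minus strand), Nfkbie (chr17:45555450-45555749, plus strand) and Tnfaip3 (chr10:19015361-19015660, minus strand). Capitals mark the bases of consensus matches on either strand, overlapping matches merged.
Nfkb2: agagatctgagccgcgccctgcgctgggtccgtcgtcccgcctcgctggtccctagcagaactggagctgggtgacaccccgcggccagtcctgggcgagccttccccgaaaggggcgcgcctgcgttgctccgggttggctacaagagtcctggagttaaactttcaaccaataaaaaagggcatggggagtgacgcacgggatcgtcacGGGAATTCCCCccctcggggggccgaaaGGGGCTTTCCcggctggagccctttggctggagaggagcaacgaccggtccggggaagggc
Rel: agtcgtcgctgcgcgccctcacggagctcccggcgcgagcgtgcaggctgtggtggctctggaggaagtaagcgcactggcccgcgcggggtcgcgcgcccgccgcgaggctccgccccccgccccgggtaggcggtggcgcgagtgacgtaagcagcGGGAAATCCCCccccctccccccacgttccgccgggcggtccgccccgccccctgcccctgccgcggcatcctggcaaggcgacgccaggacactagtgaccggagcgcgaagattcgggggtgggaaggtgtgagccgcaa
Nfkbia: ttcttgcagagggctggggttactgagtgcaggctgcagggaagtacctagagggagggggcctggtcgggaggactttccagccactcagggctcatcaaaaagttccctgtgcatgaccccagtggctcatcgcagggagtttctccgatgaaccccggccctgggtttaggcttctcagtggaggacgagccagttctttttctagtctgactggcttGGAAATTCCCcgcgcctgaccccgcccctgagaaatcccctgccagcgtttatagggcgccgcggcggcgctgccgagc
Nfkbie: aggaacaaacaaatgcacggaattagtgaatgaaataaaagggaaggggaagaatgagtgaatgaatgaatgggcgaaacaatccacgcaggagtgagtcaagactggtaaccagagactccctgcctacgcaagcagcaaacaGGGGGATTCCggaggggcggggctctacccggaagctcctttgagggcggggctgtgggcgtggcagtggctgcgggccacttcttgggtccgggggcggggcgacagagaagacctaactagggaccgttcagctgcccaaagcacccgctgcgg
Tnfaip3: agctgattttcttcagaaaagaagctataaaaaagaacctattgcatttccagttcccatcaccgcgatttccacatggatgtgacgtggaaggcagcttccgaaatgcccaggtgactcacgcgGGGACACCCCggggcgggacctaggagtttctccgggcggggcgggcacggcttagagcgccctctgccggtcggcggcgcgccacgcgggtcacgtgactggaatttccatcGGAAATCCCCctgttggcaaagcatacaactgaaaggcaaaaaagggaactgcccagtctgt
Of the 10 genes, 8 had a window in the RefSeq table used (11 windows in all), and 5 of these 8 genes held the consensus in at least 1 window, against 9.55% of all 27025 genes with windows. By window, 7 of 11 held it, against 8.46% of 32851. Several of these genes are known NF-kB targets, so these shares are descriptions and no test of the zone differences. These windows are not all separate, since overlapping windows of Nfkb2 share the match GGGACTTTCC, which is thus counted in each. The match in Nfkbia began 29 bases upstream of the annotated start, that in Nfkbie 106 bases upstream, and the merged match in Rel 92 bases upstream. The windows of Rela, Nfkbib and Birc3 held no such match, although Birc3 rose in LZ over DZ in both genotypes. Nfkb1 and Relb had no window. The looser motif of GGG, any 5 bases and CC, searched on both strands and overlapping the consensus, was in windows of 7 of the 8 genes and of 53.5% of all genes. The motif TGANTCA, a loose form of the core TGA(C/G)TCA bound by BACH and AP-1 proteins, was also searched on both strands. It was in windows of Nfkb2, Nfkbie and Tnfaip3 (3 of 8 genes, against 8.97% of all genes). The match read TGAATCA in Nfkb2, which is not that core, TGAGTCA in Nfkbie and TGACTCA in Tnfaip3. In Nfkbie it began 156 bases upstream of the start and in Tnfaip3 136 bases upstream, in windows printed above. A match describes the letters only and is not evidence of binding.

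Values are FPKM (fragments counted per kilobase of a transcript's length and scaled to each library's mapped fragments), which are per length, so that levels of different genes can be set side by side. FPKM summed to 502214 to 540885 per library. Absolute depth is unknown. Judged from the steps of low values, the libraries ranged from 0.908 to 1.47 times the depth of dKO LZ replicate 1, with all 4 DZ libraries above it. Changes are given on the log2(FPKM + 1) scale with their SE, a scale that understates the change of low genes, and were tested with limma over 10610 genes with Benjamini-Hochberg adjustment, so that "rose" and "fell" mean an adjusted p under 0.05. Nothing in the labels ties the 2 replicates of a group to different mice, and p-values therefore cover only library spread, which may be technical. Bach2 was at 64.5 and 62.7 FPKM in dKO LZ, 49.8 and 53.4 in sKO LZ, 96.2 and 94.5 in dKO DZ and 76.2 and 74.6 in sKO DZ, higher in dKO than in sKO in both zones (limma adjusted p = 0.00454 in LZ and 0.00894 in DZ). The table gives 1 value per gene and none per exon, so the deletion could not be checked, and dKO and sKO are the groups as labelled. The 6 B cell markers summed to 2791 to 3976 FPKM. The 7 T cell markers found summed to 5.24 to 7.05 FPKM in LZ libraries and 1.91 to 3.11 in DZ libraries. Of these, Cd3e was at 0 to 0.0771, and only Lat was tested, which rose in LZ over DZ in both genotypes. The 5 NK cell markers, with Ncr1 at 0 to 0.215, summed to 0.126 to 2.58 FPKM, highest in dKO LZ replicate 2, and 0 were tested. The 4 light zone markers (Cd86, Cd83, Cd40, Fcer2a) all rose in LZ over DZ in both genotypes, and the dark zone markers Cxcr4, Foxp1 and Polh fell. Cd86 and Cxcr4 proteins set the sort gates, and Cd83 and Cd40 are also among the response genes described further on.

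A pair of libraries stood apart. In sKO replicate 1 of both zones, 10 immediate early genes, chosen after their values were seen, summed to 837 FPKM in LZ and 799 in DZ, against 296 to 376 in the other 6 libraries. These genes are switched on within minutes of a signal or of stress. Fos was at 212 and 219 FPKM in sKO replicate 1 of LZ and DZ, against 49.9 and 65.98 in sKO replicate 2. Of the 10 NF-kB genes, Nfkbia and Tnfaip3 moved with them. Nfkbia was higher in replicate 1 than in replicate 2 by 0.40 in sKO LZ and 0.69 in sKO DZ. Tnfaip3 was higher in replicate 1 by 0.48 and 1.07 in the same groups. The 95th percentile of such gaps over all genes tested was 0.41 in sKO LZ and 0.35 in sKO DZ, so that Nfkbia lay just under it in LZ and the rest lay above. In dKO the gaps of Nfkbia and Tnfaip3 between replicates were -0.19 to 0.074. Nfkbie and Birc3 were the steadiest members, with gaps of -0.052 to 0.013 in the 4 groups. Results whose call changed without both sKO replicate 1 libraries are given in that form too, as are the genotype and sKO zone differences of Nfkbia and Tnfaip3. This is an alternative chosen after the values were seen, in which each sKO group is 1 library assumed to vary like the rest.

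**Figure D1:**
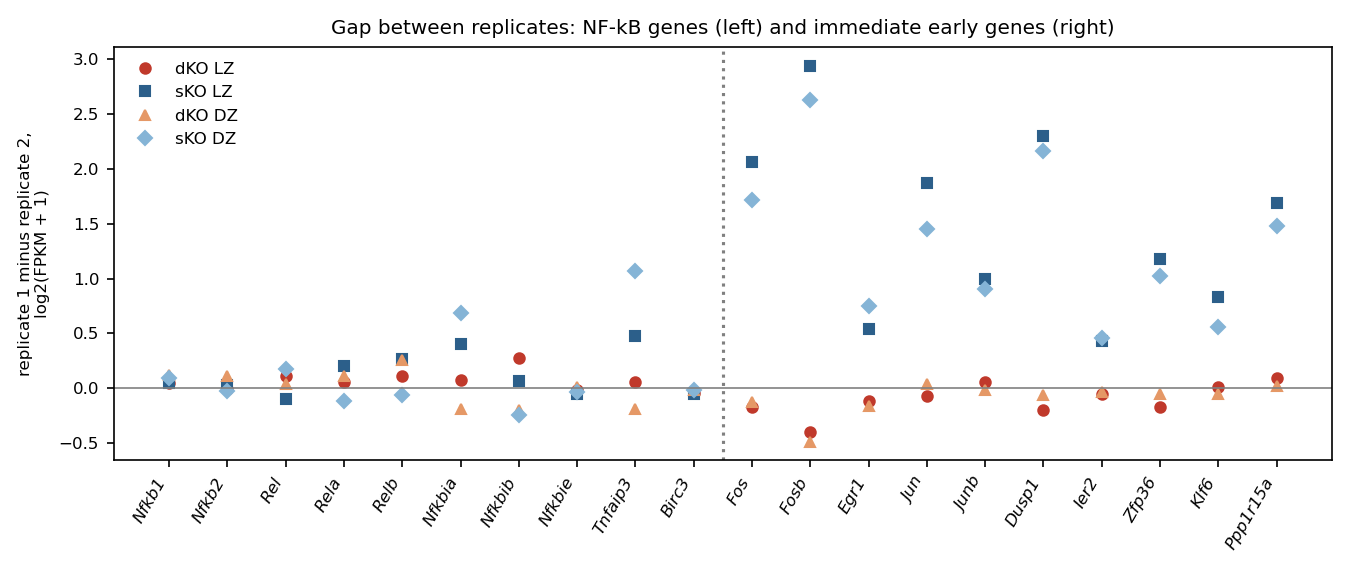
Gap between replicate 1 and replicate 2 on the log2(FPKM + 1) scale (y axis) for the 10 NF-kB genes and 10 immediate early genes (x axis), with 1 symbol per group. Among the NF-kB genes, Nfkbia and Tnfaip3 have the largest gaps in the sKO groups, up to 1.07, in the direction of the immediate early genes.

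Of the 5 subunit genes, Nfkb1 and Nfkb2 were the most abundant in LZ and Relb the least abundant in every group. Nfkb1, whose product is processed to the DNA-binding partner of RELA and c-REL, was at 49.9 and 48.3 FPKM in dKO LZ, 54.5 and 52.5 in sKO LZ, 41.3 and 37.9 in dKO DZ and 43.8 and 41.1 in sKO DZ. Nfkb2, whose product is processed to the partner of RELB, was at 44.9 and 45.02 in dKO LZ, 50.97 and 49.8 in sKO LZ, 20.5 and 18.9 in dKO DZ and 26.9 and 27.4 in sKO DZ. All 4 groups of Nfkb2 were apart, with dKO below sKO within each zone and DZ below LZ, while the DZ groups of Nfkb1 overlapped. Rel, which encodes the lymphoid subunit c-REL, was at 40.7 and 37.6 in dKO LZ, 41.1 and 44.1 in sKO LZ, 29.4 and 28.6 in dKO DZ and 32.2 and 28.3 in sKO DZ. Rela, which encodes the widely expressed transactivating subunit, was at 31.9 and 30.5 in dKO LZ, 32.7 and 28.4 in sKO LZ, 33.7 and 30.99 in dKO DZ and 32.9 and 35.8 in sKO DZ. The groups of Rela next to each other in mean overlapped throughout, so that Rela had no clear order, whereas LZ lay above DZ in every library of Rel. Both sKO LZ libraries of Rela did lie below both sKO DZ libraries, narrowly (32.7 against 32.9 at the nearest). Relb, the subunit of the non-canonical pathway, was at 22.98 and 21.2 in dKO LZ, 25.6 and 21.1 in sKO LZ, 11.6 and 9.57 in dKO DZ and 12.9 and 13.5 in sKO DZ, with all LZ libraries above all DZ libraries and overlap between the genotypes within LZ.

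Among the inhibitors Nfkbia was the most abundant. Nfkbia, which encodes the inhibitor that NF-kB resynthesizes to end its own response, was at 90.7 and 86.1 FPKM in dKO LZ, 110.3 and 83.1 in sKO LZ, 32.6 and 37.2 in dKO DZ and 63.8 and 39.2 in sKO DZ. Nfkbie, which encodes an inhibitor prominent in B cells that acts on c-REL and RELA pairs, was at 33.2 and 33.6 in dKO LZ, 39.6 and 41.1 in sKO LZ, 17.2 and 17.1 in dKO DZ and 21.9 and 22.4 in sKO DZ. Nfkbib, the third inhibitor of this class, was at 20.5 and 16.8 in dKO LZ, 18.2 and 17.3 in sKO LZ, 13.8 and 15.97 in dKO DZ and 14.4 and 17.2 in sKO DZ. Its genotypes overlapped in both zones, while the 4 groups of Nfkbie were all apart. Exons of Nfkbib overlap those of Ccer2 and Sirt2 on the opposite strand, and exons of Nfkb2 those of the noncoding gene AC114539.1 (531 of 4584 exon bases of Nfkb2) and of Psd (299), in GENCODE M21. No source used here says whether the libraries kept strand, and reads shared by such partners cannot be told apart. Birc3, a ubiquitin ligase gene of the TNF receptor and CD40 complexes that protects from cell death, was at 61.5 and 63.6 in dKO LZ, 69.7 and 72.2 in sKO LZ, 26.5 and 26.8 in dKO DZ and 34.1 and 34.6 in sKO DZ, again with 4 groups apart. Tnfaip3, a ubiquitin-editing enzyme gene that shuts off NF-kB signalling, was at 18.5 and 17.7 in dKO LZ, 27.6 and 19.6 in sKO LZ, 6.25 and 7.27 in dKO DZ and 17.96 and 8.04 in sKO DZ. The higher sKO DZ library of Tnfaip3 lay within the range of dKO LZ.

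**Figure D2:**
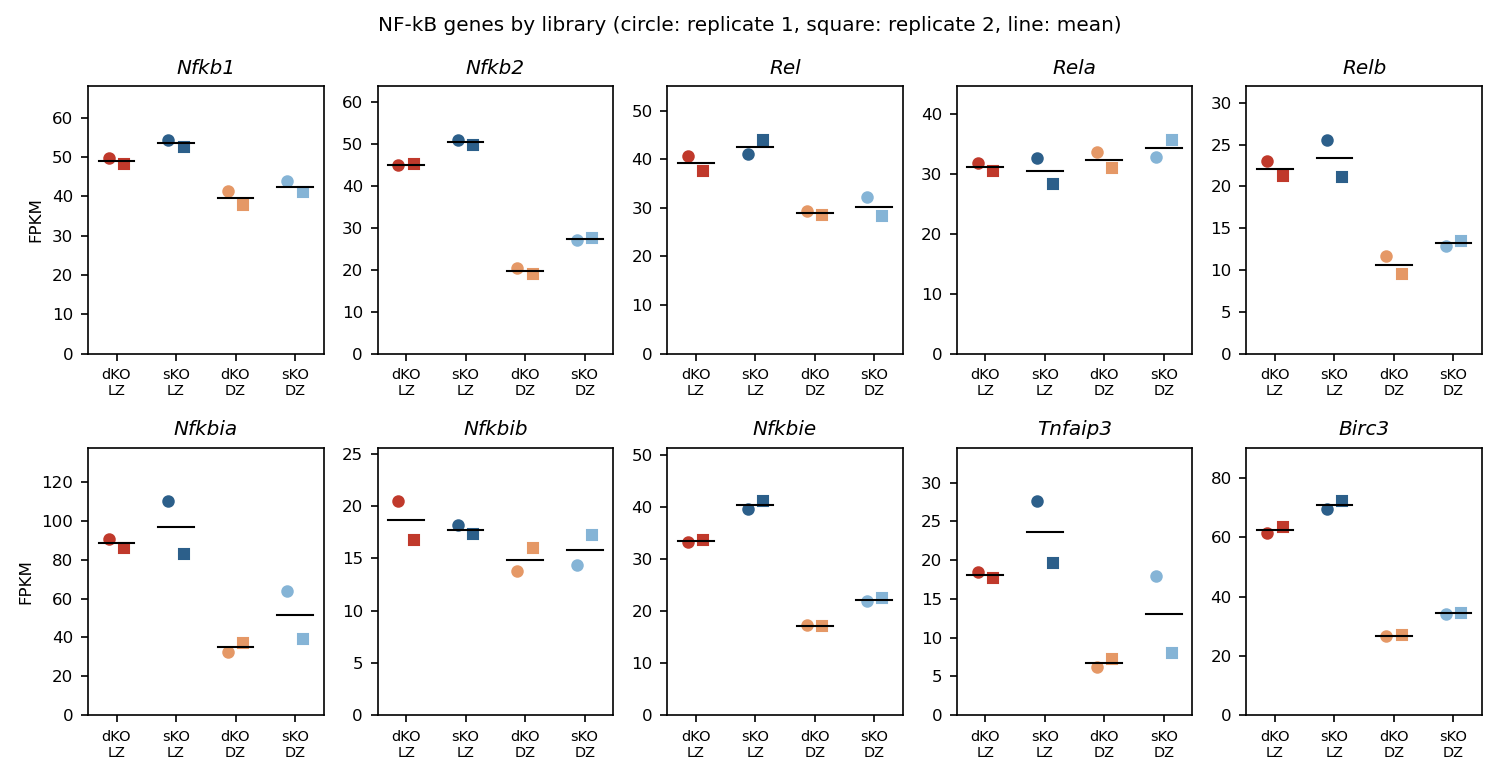
FPKM (y axis, from 0) of the 10 NF-kB genes in each library of the groups dKO LZ, sKO LZ, dKO DZ and sKO DZ (x axis), with circles for replicate 1, squares for replicate 2 and a line for the mean. Birc3 and Nfkbie show 4 separate groups, Rela has overlap between all groups next to each other in mean, and Nfkbia and Tnfaip3 spread within sKO.

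The zone comparison asks how these genes differ between cells sorted as LZ and as DZ. In dKO, 8 of the 10 genes rose in LZ over DZ and 0 fell, where 18% of all genes tested were called higher and 16.1% lower. In sKO, 7 rose and 0 fell, where 15.2% of all genes were called higher and 16.1% lower. The median difference over the 10 genes was 0.96 in dKO and 0.80 in sKO, beside 0.0065 and -0.0045 over all genes. In dKO the libraries of the zones did not overlap for 9 of the 10 genes (73.2% of all genes), and in sKO for 10 of 10 (65.8% of all genes). Birc3 averaged 62.5 ± 1.45 FPKM in LZ and 26.7 ± 0.230 in DZ of dKO (SD, n = 2 each; 1.20 ± 0.039, limma adjusted p = 3.23e-05). In sKO it rose by 1.03 ± 0.039 (limma adjusted p = 6.47e-05). Nfkb2 rose by 1.15 ± 0.047 in dKO and 0.87 ± 0.047 in sKO (limma adjusted p = 6.61e-05 and 0.000165), and Nfkbie by 0.92 ± 0.040 and 0.84 ± 0.040 (limma adjusted p = 6.61e-05 and 0.00011). The non-canonical partner Relb rose by 1.00 ± 0.12 in dKO and 0.77 ± 0.12 in sKO. Without both sKO replicate 1 libraries the sKO calls of Birc3, Nfkb2, Nfkbie, Relb, Rel and Nfkb1 held (limma adjusted p 0.00209 to 0.0450).

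Canonical subunits differed less. Rel rose in LZ by 0.42 ± 0.074 in dKO and 0.48 ± 0.074 in sKO, and Nfkb1 by 0.30 ± 0.056 and 0.33 ± 0.056 (limma adjusted p 0.00464 to 0.00776 over these 4 values). Rela did not pass the test, at -0.049 ± 0.081 in dKO (95% interval -0.24 to 0.15) and -0.16 ± 0.081 in sKO (95% interval -0.36 to 0.031). Without both sKO replicate 1 libraries Rela passed as lower in sKO LZ than in sKO DZ, at -0.32 (limma adjusted p = 0.0463). Nfkbib, at 0.30 ± 0.12 in dKO and 0.16 ± 0.12 in sKO, did not pass either. Nfkbia rose by 1.32 ± 0.23 in dKO (limma adjusted p = 0.00651) and 0.92 ± 0.23 in sKO (limma adjusted p = 0.0260). The sKO call was lost without sKO LZ replicate 1 (0.1001) or sKO DZ replicate 2 (0.0730, with a difference of 0.58), with no filter on low values (0.0557), with a robust variance prior (0.0630) and with only the sKO libraries (0.0723), while its adjusted p was 0.00665 without both sKO replicate 1 libraries. Tnfaip3 rose by 1.30 ± 0.33 in dKO (limma adjusted p = 0.0254), a call lost without any 1 of the 4 dKO libraries (0.0774 to 0.115), with no filter on low values (0.0555) and with a robust variance prior (0.0694). In sKO its difference of 0.89 ± 0.33 did not pass with all libraries (limma adjusted p = 0.0873) but passed once sKO DZ replicate 1 was left out (1.42, adjusted p = 0.00946), and likewise when replicate 1 was left out of both sKO groups (0.00652).

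**Figure D3:**
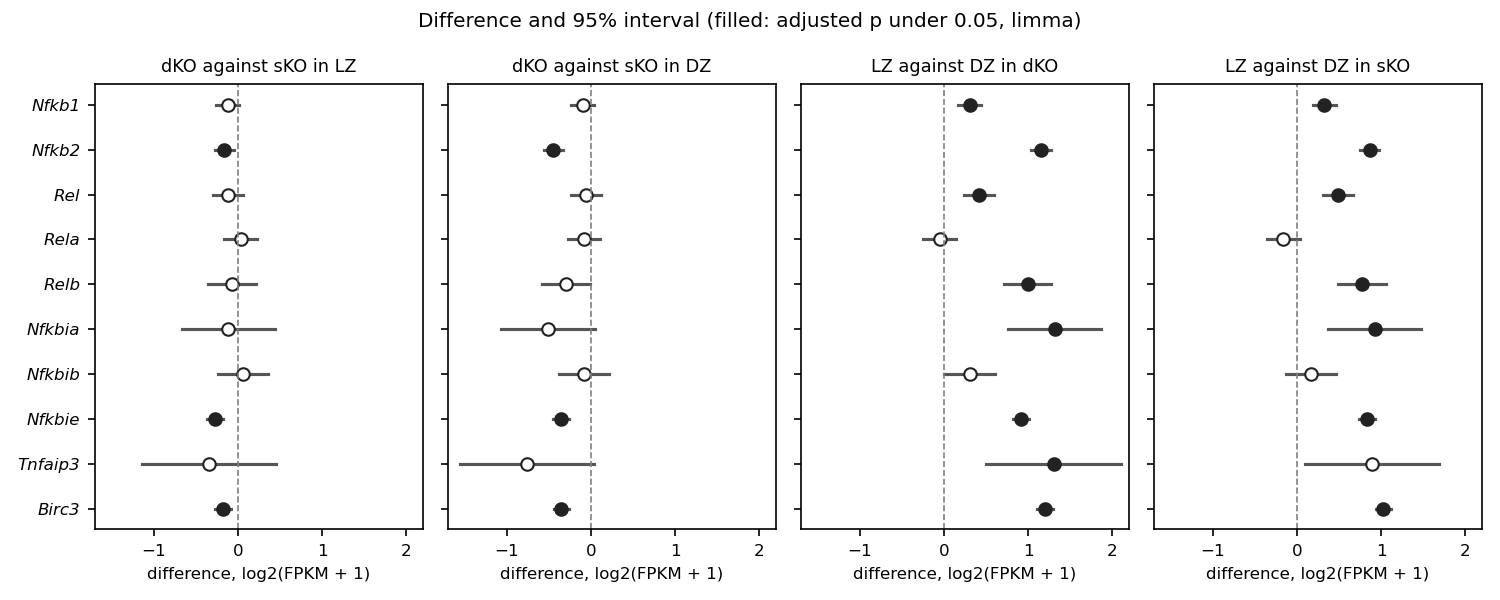
Differences on the log2(FPKM + 1) scale with 95% intervals (x axis) for the 10 NF-kB genes (y axis) in 4 comparisons, filled where the adjusted p is under 0.05 (limma). In dKO 8 and in sKO 7 genes are filled to the right of 0 for LZ against DZ, and Nfkb2, Nfkbie and Birc3 are filled to the left of 0 for dKO against sKO in both zones.

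Myeloid transcripts also differed between the sorted zones. The 9 myeloid markers in the table summed to 21.8 and 145 FPKM in dKO LZ and 7.86 and 51.6 in sKO LZ, against 3.29 and 1.27 in dKO DZ and 1.80 and 2.71 in sKO DZ. Cd14 was listed at 0 in 6 of 8 libraries. Of the 5 tested, 4 rose in LZ over DZ in dKO and 0 in sKO, and their part in the NF-kB differences was not tested. The dKO LZ libraries, which differed most in these transcripts, were at 44.9 and 45.02 FPKM for Nfkb2, 61.5 and 63.6 for Birc3 and 90.7 and 86.1 for Nfkbia, in the order replicate 1 and replicate 2.

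The makeup of the subunit transcripts differed between the zones. The 5 subunit genes together were at 190.3 and 183 FPKM in dKO LZ, 205 and 196 in sKO LZ, 136 and 126 in dKO DZ and 149 and 146 in sKO DZ. Of that sum Nfkb2 made up 23.6 and 24.6% in dKO LZ, 24.9 and 25.4% in sKO LZ, 14.99 and 14.98% in dKO DZ and 18.1 and 18.8% in sKO DZ. Rela made up 16.7 and 16.7% in dKO LZ, 15.97 and 14.5% in sKO LZ, 24.7 and 24.6% in dKO DZ and 22.1 and 24.5% in sKO DZ. The shares of Nfkb2 and Rela thus did not overlap between zones, and that of Nfkb2 was lowest in both dKO DZ libraries. The share of Rel, 19.4% to 22.7% over all 8 libraries, overlapped between LZ and DZ libraries. The ratio of Nfkb2 to Nfkb1 FPKM, which does not depend on how libraries are scaled, was 0.900 and 0.932 in dKO LZ, 0.936 and 0.948 in sKO LZ, 0.496 and 0.498 in dKO DZ and 0.615 and 0.667 in sKO DZ. Relb to Rela was 0.721 and 0.695 in dKO LZ, 0.782 and 0.742 in sKO LZ, 0.345 and 0.309 in dKO DZ and 0.392 and 0.378 in sKO DZ. Both ratios were lower in every DZ library than in any LZ library, and in DZ lower in both dKO libraries than in either sKO library. With 2 libraries a group, these shares and ratios are given as descriptions.

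**Figure D4:**
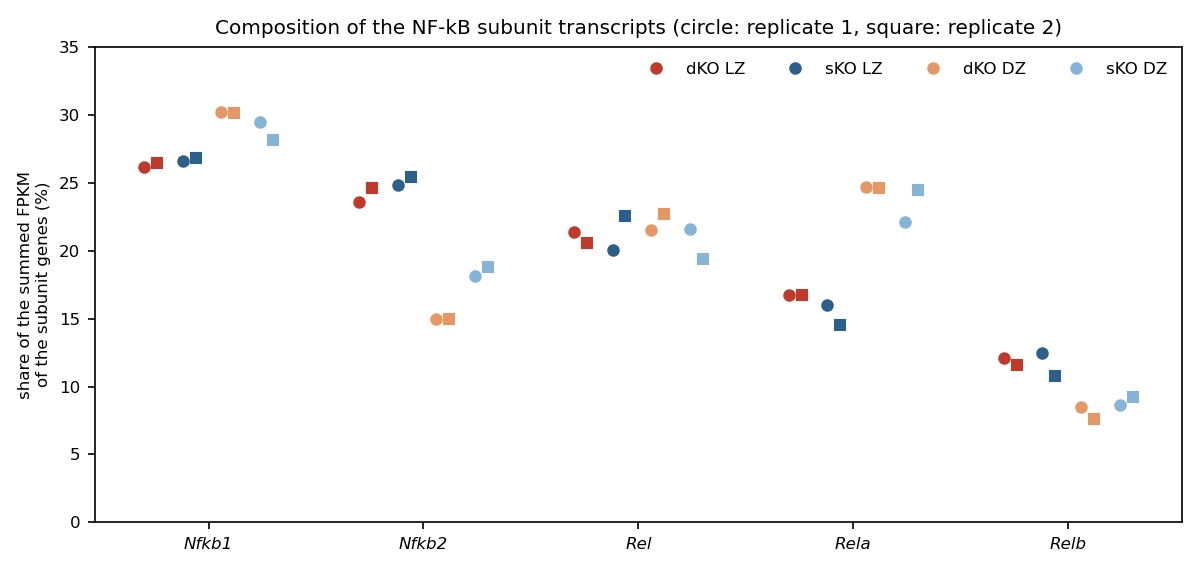
Share of each subunit gene in the summed FPKM of the 5 subunit genes (y axis, percent, from 0) per library, by gene (x axis) and group (colour), with circles for replicate 1 and squares for replicate 2. Nfkb2 and Relb take larger shares in LZ, Nfkb1 and Rela take larger shares in DZ, and Nfkb2 is at 14.99 and 14.98% in dKO DZ.

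The genotype comparison asks how these genes differ between donors with floxed and with intact Bach2, both with floxed Prdm1. In DZ, 0 of the 10 genes rose and 3 fell in dKO against sKO, where 6.63% of all genes tested were called higher and 5.23% lower. At an unadjusted p under 0.05 the count was 4 of 10, all lower, where 28.1% of all genes passed in either direction. In LZ, 0 rose and 3 fell, where 18.4% were called higher and 12.7% lower, and the unadjusted count was 3, all lower, where 43.4% of all genes passed in either direction. Higher genes made up 59.0% of all LZ calls as deposited and 45.5% with upper quartile scaling. In both zones the 3 genes that fell were Nfkb2, Nfkbie and Birc3. The median difference of the 10 genes was -0.32 in DZ (0.014 over all genes) and -0.12 in LZ (0.022 over all genes). The dKO and sKO libraries did not overlap for 6 of 10 genes in DZ (58.6% of all genes) and 6 of 10 in LZ (65.9% of all genes), both near the share over all genes.

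Nfkb2 averaged 19.7 ± 1.123 FPKM in dKO DZ and 27.2 ± 0.348 in sKO DZ (SD, n = 2 each; -0.45 ± 0.047, limma adjusted p = 0.00555), a ratio of 0.723. This call held without each single library (up to 0.0456) and without both sKO replicate 1 libraries (0.0358). In LZ it averaged 44.96 ± 0.0870 in dKO and 50.4 ± 0.858 in sKO (-0.16 ± 0.047, limma adjusted p = 0.0449). That call was lost without any 1 of the 4 LZ libraries (0.0864 to 0.154), without sKO DZ replicate 1 (0.0640) or replicate 2 (0.0642), and without both sKO replicate 1 libraries (0.151). Nfkbie averaged 33.4 ± 0.251 FPKM in dKO LZ and 40.4 ± 1.05 in sKO LZ (-0.27 ± 0.040, limma adjusted p = 0.00454), a call that held without each single library (up to 0.0350). It averaged 17.2 ± 0.114 in dKO DZ and 22.2 ± 0.356 in sKO DZ (-0.35 ± 0.040, limma adjusted p = 0.00632; lost without dKO DZ replicate 1, 0.0597, or replicate 2, 0.0596). Birc3 fell by 0.35 ± 0.039 in DZ (limma adjusted p = 0.00584; lost without dKO DZ replicate 1, 0.0609, or replicate 2, 0.0524). In LZ it fell by 0.18 ± 0.039 (limma adjusted p = 0.0155; lost without dKO LZ replicate 1, 0.0946, or sKO LZ replicate 2, 0.0600). Without both sKO replicate 1 libraries the calls of Nfkbie (0.0148 in LZ and 0.0320 in DZ) and Birc3 (0.0306 and 0.0316) held. Fitting only the LZ libraries ended the LZ calls of Birc3 (0.0546) and Nfkb2 (0.0630), and that of Nfkb2 was also lost with no filter on low values (0.0549) and no variance trend (0.0664). Where a call was lost the difference kept its direction and moved by less than 1.5 times.

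The other 7 genes did not pass the test in either zone. Nfkb1 differed by -0.12 ± 0.056 in LZ and -0.100 ± 0.056 in DZ, Rel by -0.12 ± 0.074 and -0.056 ± 0.074, and Rela by 0.032 ± 0.081 and -0.083 ± 0.081. In LZ Nfkb1 passed with upper quartile scaling (limma adjusted p = 0.0456) and with quantile normalization (0.0265). Relb was at -0.30 ± 0.12 in DZ with no overlap of the libraries (limma adjusted p = 0.158) and at -0.070 ± 0.12 in LZ. Nfkbib was at 0.060 ± 0.12 in LZ and -0.079 ± 0.12 in DZ. Nfkbia was at -0.51 ± 0.23 in DZ (95% interval -1.07 to 0.043), against -0.17 without both sKO replicate 1 libraries, and at -0.11 ± 0.23 in LZ, where the sign turned to 0.088 without them. Tnfaip3 had the largest difference of the 10 genes and the widest interval, -0.76 ± 0.33 in DZ (95% interval -1.56 to 0.041, limma adjusted p = 0.199). That value was -0.22 without sKO DZ replicate 1 (adjusted p = 0.579), -1.29 without sKO DZ replicate 2 (0.0372), and it was -0.22 when replicate 1 was left out of both sKO groups. In LZ it was -0.35 ± 0.33, against -0.11 without them. The small differences of Relb in LZ and Rel in DZ also turned sign in that case, to 0.065 and 0.034.

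Markers of several cell types moved with the genotype. The 4 light zone markers summed to 155 and 156 FPKM in dKO DZ and 223 and 231 in sKO DZ, and to 569 and 576 in dKO LZ and 743 and 817 in sKO LZ. Of these 4 markers 2 fell in DZ and 3 in LZ. Fcer2a, a large part of the gap in the sums, averaged 28.6 in dKO DZ and 69.9 in sKO DZ, and 142 in dKO LZ and 281 in sKO LZ. Cd40 passed in neither zone. Among the dark zone markers Foxp1 fell in LZ (-0.34 ± 0.053) and did not pass in DZ, and Cxcr4 and Polh passed in neither zone. Among the germinal centre markers S1pr2 rose in LZ (0.31 ± 0.048) and DZ (0.25 ± 0.048), and Bcl6, Fas and Mef2b passed in neither. The 6 B cell markers summed to 2791 and 2846 in dKO DZ and 3250.5 and 3356 in sKO DZ, and to 3315 and 3315 in dKO LZ and 3852 and 3976 in sKO LZ, with 4 of 6 lower in DZ and 5 of 6 in LZ. Of the 5 myeloid markers tested, 0 rose in DZ and 1 in LZ. The 5 naive or memory B cell markers in the table summed to 8.92 and 8.61 FPKM in dKO DZ and 19.7 and 11.3 in sKO DZ, and to 13.3 and 16.2 in dKO LZ and 29.9 and 26.6 in sKO LZ. Of these, Cd38 and Gpr183 fell in DZ, and Cd38 and Ccr6 fell in LZ. Klf2, a large part of the sums, was at 11.3 and 3.49 in sKO DZ and 10.5 and 3.94 in sKO LZ, higher in replicate 1. It was at 3.00 to 4.38 in the dKO libraries and did not pass by genotype (limma adjusted p = 0.605 in DZ and 0.346 in LZ). The 6 plasma cell markers, mostly Igj and Xbp1, summed to 459.7 and 472 in dKO DZ and 431 and 449 in sKO DZ, and to 368 and 368 in dKO LZ and 325 and 309 in sKO LZ, with Irf4 lower in DZ and Igj higher in LZ. Prdm1 and Sdc1 were under 1 FPKM throughout and not tested. Prdm1 was at 0.980 and 0.967 in dKO LZ, 0.058 and 0.018 in sKO LZ, 0.258 and 0.434 in dKO DZ and 0.047 and 0.122 in sKO DZ. Sdc1 was at 0.606 and 0.505, 0.067 and 0.064, 0.156 and 0.273, and 0.041 and 0.141 in the same order. Of the stromal list only Pecam1 was tested, and it fell in both zones (-0.44 ± 0.070 in DZ and -0.71 ± 0.070 in LZ). The other genes of that list were at 0 to 0.0332 FPKM, so the fall of Pecam1 is that of 1 gene and does not describe stromal cells. The part of these markers in the differences of Nfkb2, Nfkbie and Birc3 was not tested, and in bulk samples fewer cells of a type cannot be told apart from less RNA per cell.

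Whether the genotype difference itself differed between zones was tested as an interaction. Of the 10 genes, 0 passed (limma, 0.0283% of all genes tested), and 2 of 10 had an unadjusted p under 0.05, where 11.6% of all genes did. The 2 were Nfkb2, with a difference in LZ minus that in DZ of 0.29 ± 0.067 (limma adjusted p = 0.336; 95% interval 0.13 to 0.45), and Birc3 (0.17 ± 0.054, limma adjusted p = 0.366). For Nfkbie it was 0.085 ± 0.056. The same values give the amount by which the zone difference was greater in dKO, since the comparisons share their libraries.

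Other genes of the pathway were taken from 4 lists of 65 genes, of which 64 were tested (all but Ccr7). Between zones 27 rose and 7 fell in LZ over DZ in dKO, and 24 rose and 5 fell in sKO. Of all genes tested, 18% were called higher and 16.1% lower in dKO, and 15.2% and 16.1% in sKO. Of 31 response genes tested, 18 rose and 2 fell in dKO (median 0.71) and 17 rose and 3 fell in sKO (median 0.66). Cd83, an activation marker, was at 291 and 299 FPKM in dKO LZ, 319.6 and 359 in sKO LZ, 72.2 and 71.4 in dKO DZ and 94.6 and 98.3 in sKO DZ. Ccnd2, the cyclin gene of antigen receptor and CD40 responses, rose by 2.64 ± 0.10 in dKO and 2.66 ± 0.10 in sKO, and the receptor gene Cd40 by 1.27 ± 0.056 and 1.33 ± 0.056. Bcl2a1a, a pro-survival gene with near-identical copies that can share its reads, rose by 2.36 ± 0.10 and 1.95 ± 0.10. The copies Bcl2a1b and Bcl2a1d also rose in both genotypes and are counted as separate response genes. Of 12 other IkB and negative regulator genes, 5 rose and 1 fell in dKO and 4 rose and 0 fell in sKO. Nfkbid, which encodes an atypical nuclear IkB protein needed for some B cell responses, was at 38.99 and 38.4 FPKM in dKO LZ, 29.5 and 26.6 in sKO LZ, 10.4 and 10.9 in dKO DZ and 12.3 and 10.2 in sKO DZ. Bcl3, another nuclear IkB gene, rose in LZ by 1.44 ± 0.11 and 1.04 ± 0.11, Tnip2, a partner of Tnfaip3, by 0.85 ± 0.12 and 0.73 ± 0.12, and the RNase gene Zc3h12a by 0.59 ± 0.080 and 0.52 ± 0.080. Adjusted p was 2.43e-05 to 0.00589 over the zone values of these 8 genes (limma).

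Of 16 kinase and adaptor genes of the canonical pathway, 1 rose and 4 fell in LZ over DZ in dKO (median -0.039) and 1 rose and 2 fell in sKO (median -0.020), where 34.1% of all genes were called in either direction in dKO and 31.2% in sKO. Malt1, the paracaspase gene of the antigen receptor complex, fell in LZ, to 27.2 and 26.7 FPKM in dKO LZ against 34.8 and 35.2 in dKO DZ, and to 30.2 and 28.2 in sKO LZ against 37.2 and 35.5 in sKO DZ (-0.37 ± 0.048 and -0.31 ± 0.048). Prkcb, the kinase that links the antigen receptor to that complex, rose by 0.33 ± 0.065 in dKO and 0.40 ± 0.065 in sKO. The dKO call of Prkcb was lost without dKO LZ replicate 2 (0.0570), dKO DZ replicate 1 (0.0549) or dKO DZ replicate 2 (0.0504). Tab2, an adaptor gene of the kinase TAK1, fell by 0.27 ± 0.038 in dKO. Map3k7, the gene of TAK1 itself, fell by 0.17 ± 0.045 in dKO and 0.15 ± 0.045 in sKO, a sKO call lost without any 1 of the 8 libraries (up to 0.173) and a dKO call lost without any 1 of the 4 dKO libraries (up to 0.160). Of 5 non-canonical genes, 3 rose and 0 fell in dKO and 2 rose and 0 fell in sKO. Traf3, whose product holds NIK in check, rose by 0.37 ± 0.053 and 0.38 ± 0.053, and Birc2, the neighbour and relative of Birc3, by 0.49 ± 0.062 and 0.44 ± 0.062. Map3k14, the NIK gene, rose by 0.19 ± 0.053 in dKO, a call lost without any 1 of the 4 dKO libraries (up to 0.143). The fallen counts were small and moved with single libraries: over all lists they were 3 to 7 in dKO and 3 to 4 in sKO when 1 library was left out.

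By genotype, 4 rose and 15 fell in dKO over sKO in LZ (median -0.11 over 64 genes) and 1 rose and 15 fell in DZ (median -0.063). Of all genes tested, 18.4% were called higher and 12.7% lower in LZ, and 6.63% and 5.23% in DZ. Shares over all genes with libraries left out are not given here. A loss of calls in those cases therefore cannot be told from a loss over all genes. In LZ the lower count was 7 when dKO LZ replicate 1 was left out and 8 when it was dKO LZ replicate 2. In DZ it was 0 without dKO DZ replicate 1 or replicate 2, 4 without sKO DZ replicate 1 or replicate 2, 5 without dKO LZ replicate 1 or replicate 2, and 10 without both sKO replicate 1 libraries. Map3k14 fell in both zones, to 11.3 and 11.5 FPKM in dKO LZ against 14.7 and 13.8 in sKO LZ, and to 9.91 and 9.82 in dKO DZ against 13.5 and 12.9 in sKO DZ (-0.30 ± 0.053 and -0.38 ± 0.053, limma adjusted p = 0.00828 and 0.0100). The LZ call was lost without dKO LZ replicate 1 (0.0516), and the DZ call without dKO DZ replicate 1 (0.0749), dKO DZ replicate 2 (0.0757) or sKO DZ replicate 1 (0.0575). Irf5, a transcription factor gene of Toll-like receptor responses, fell by 0.46 ± 0.060 in LZ and 0.31 ± 0.060 in DZ. Sharpin, of the linear ubiquitin ligase that supports IKK, fell by 0.27 ± 0.045 in LZ, as did Itch, a ubiquitin ligase gene that acts with Tnfaip3, by 0.39 ± 0.054, Prkcb by 0.32 ± 0.065 and the glucose transporter gene Slc2a6 by 0.48 ± 0.074. Nfkbid went the other way in LZ, with a rise of 0.45 ± 0.091 (limma adjusted p = 0.0125), lost without dKO LZ replicate 1 (0.0654), dKO LZ replicate 2 (0.0549) or sKO LZ replicate 2 (0.0587). Sod2, a mitochondrial antioxidant enzyme gene, rose by 0.30 ± 0.052 in LZ, and Il10, the anti-inflammatory cytokine gene, by 1.95 ± 0.20.

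In DZ, 13 of 31 response genes fell and 1 rose (median -0.21), and in LZ 7 fell and 2 rose (median -0.13). The 13 include Bcl2a1a and its near-identical copies Bcl2a1b (-0.52) and Bcl2a1d (-0.49), so they are not 13 separate signals. Without both sKO replicate 1 libraries 7 fell in DZ. Cd83 fell in DZ by 0.42 ± 0.058, Bcl2a1a by 0.55 ± 0.10 and the adaptor gene Traf1 by 0.26 ± 0.047. Zc3h12a fell by 0.37 ± 0.080 in DZ and 0.30 ± 0.080 in LZ. These DZ calls and that of Irf5 were lost without dKO DZ replicate 1 or replicate 2 (limma adjusted p 0.0735 to 0.165). Those of Bcl2a1a, Traf1 and Irf5 were also lost without sKO DZ replicate 1 or replicate 2 (0.0616 to 0.1001), that of Zc3h12a without sKO DZ replicate 2 (0.0970), and those of Irf5 and Zc3h12a without either dKO LZ library (up to 0.0649). The LZ call of Zc3h12a was lost without any 1 of the LZ libraries (up to 0.126) and without either dKO DZ library (up to 0.0518). Tax1bp1, an adaptor gene of Tnfaip3, fell in LZ by 0.20 ± 0.046. Ube2n, a ubiquitin-conjugating enzyme gene of the IKK cascade, rose by 0.19 ± 0.055. Tax1bp1 lost its call without dKO LZ replicate 1, dKO LZ replicate 2 or sKO LZ replicate 1 (0.0504 to 0.107), Ube2n in each of 7 cases of 1 library left out, the exception being dKO LZ replicate 2 (up to 0.193), and the LZ fall of Prkcb without dKO LZ replicate 1 (0.0738). Leaving out both sKO replicate 1 libraries also ended the LZ calls of Tax1bp1 (0.0848) and Ube2n (0.135) and the DZ call of Traf1 (0.0557). Of the 16 canonical kinase and adaptor genes, 1 rose and 3 fell in LZ and 0 rose and 0 fell in DZ.

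**Figure D5:**
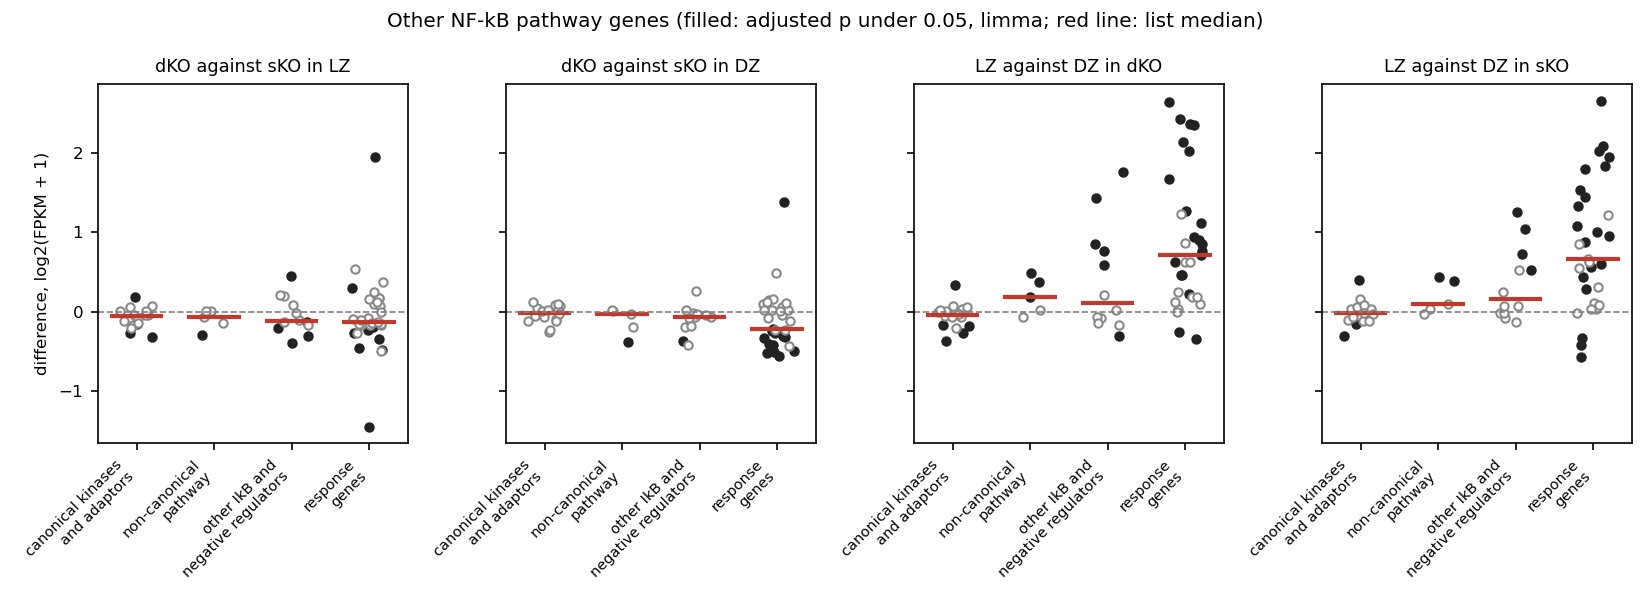
Differences on the log2(FPKM + 1) scale (y axis) of 64 NF-kB pathway genes by list (x axis) in 4 comparisons, filled where the adjusted p is under 0.05 (limma), with a red line at each list's median. Response genes have medians of 0.71 and 0.66 for LZ against DZ in dKO and sKO, and of -0.13 and -0.21 for dKO against sKO in LZ and DZ.

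Genes with the most similar pattern over the 4 group means were sought for the 7 members whose group means spanned at least 0.5. Likeness was the root mean square distance between the mean-centred log2(FPKM + 1) profiles over 4 groups, among 7535 genes. The closest to Nfkb2 were Cd69, Snx11 and Il2rg (0.029 to 0.069), to Relb Anxa1, Napsa and Lta (0.031 to 0.043) and to Rel Spag9, Zfp266 and Jtb (0.013 to 0.016). The closest to Nfkbie were Cd53, Il2rg and Itpr1 (0.016 to 0.045), to Nfkbia Ncf1, Cd52 and Cd69 (0.067 to 0.083), to Tnfaip3 Gatm, Ncf1 and Zyx (0.094 to 0.11) and to Birc3 Snx11, Cd52 and Cd69 (0.041 to 0.069). Cd69, an early activation marker of lymphocytes, was thus among the 3 closest genes of Nfkb2, Nfkbia and Birc3. It averaged 19.5 FPKM in dKO LZ, 23.6 in sKO LZ, 8.73 in dKO DZ and 13.9 in sKO DZ. Snx11, Il2rg, Cd52 and Ncf1 also recurred among the closest genes. The sKO means of Nfkbia and Tnfaip3 include the replicate 1 libraries that stood apart, and likeness without those libraries was not computed.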

How the data were processed

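The deposited table holds FPKM values for 23234 gene symbols in 8 columns, 1 per library, per the file headers. Tools listed in the submitters' processing notes were TopHat2 2.0.8 and Cufflinks 2.1.1, beside the build mm9. Their settings and annotation were not given in the sources used here. The final row, which names libraries and no gene, was dropped, 0 columns were unmatched, and no counts were used here, so that depth is known only relatively.

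Values were taken as log2(FPKM + 1), the filter kept genes reaching 1 FPKM in 2 or more libraries, and 4 group means were fitted to all 8 libraries with limma 3.58.1 in R 4.3.3 (intensity trend, 4 residual degrees of freedom). Tests were two-sided over 5 contrasts. The fit was checked on simulated data. Pathway genes named were up to 4 per list and contrast with the smallest p, among those past the threshold with at least 5 FPKM and no overlap between groups. All 10 members were named. A pathway gene that this rule picks and 1 marker are not reported here. The members, lists and tests were chosen with earlier results of these data known. Alternatives were other pseudocounts, filters, scalings and variance priors, a replicate block, only the libraries compared, and leaving out libraries.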

Additional observations from a re-analysis of the deposited data

How the results depend on the processing

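Over 19 alternatives, 905 of 940 recomputed values of the 10 genes kept their side of the threshold, with no called value reversed, 29 lost a call and 6 gained one. With 1 library left out, the number of members called varied in each genotype and zone comparison. The genotype differences of Nfkb2, Nfkbie and Birc3 then lay between -0.504 and -0.336 in DZ and between -0.293 and -0.143 in LZ. Fitting only the libraries compared gave 1 lower member in LZ by genotype (Nfkbie). Without both sKO replicate 1 libraries 1 member (Rela) was lower in sKO LZ against sKO DZ, and 2 pathway genes were higher in dKO DZ. Of the pathway lists, the count lower in dKO DZ was 5 with no filter on low values, 9 with no variance trend and 9 with only the libraries compared. The count lower in sKO LZ against sKO DZ was 3 with no filter and 3 with only the libraries compared. With 1 library left out, pathway counts were 7 to 13 lower in dKO LZ, 0 to 2 higher and 0 to 13 lower in dKO DZ, and 3 to 7 (dKO) and 3 to 4 (sKO) lower in LZ against DZ. The causes were not tested.

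The replicate numbers pair nothing that the labels name. Gaps between replicates correlated at -0.108 to 0.124 between groups (6 pairs of groups, over 10610 genes). For sKO LZ with sKO DZ the value was 0.061, yet both held the immediate early gap described above. The gap of Fos was 2.07 in sKO LZ and 1.72 in sKO DZ, against -0.17 in dKO LZ and -0.12 in dKO DZ. A correlation over all genes cannot show whether a gap of few genes is shared. Whether same-numbered sKO libraries came from the same mice was not tested. With a replicate block the pathway genes lower in dKO DZ numbered 7 instead of 15, where DZ genotype calls over all genes numbered 881 instead of 1258. With that block Nfkb2 in LZ by genotype had an adjusted p of 0.0622 (limma). The block changed no other call of the 10 genes. Whether the block covers a gap held by the sKO groups alone was not tested. With 2 libraries a group, a p that missed the threshold does not show that values were alike.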

Other observations

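Some response genes ran against the majority between zones. Cd44, an adhesion receptor gene, fell in LZ against DZ (-0.26 ± 0.061 in dKO and -0.33 ± 0.061 in sKO), and so did Gadd45b, a stress response gene (-0.34 ± 0.10 and -0.57 ± 0.10), with limma adjusted p 0.00898 to 0.0442. In dKO these were the 2 lower response genes, and 0 were called when any 1 of the 4 dKO libraries was left out. Both were named after their values were seen.

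Ratios of the feedback genes Nfkbia and Tnfaip3 to steadier members were as follows. Tnfaip3 over Birc3 FPKM was 0.301 and 0.279 in dKO LZ, 0.396 and 0.271 in sKO LZ, 0.236 and 0.271 in dKO DZ and 0.527 and 0.233 in sKO DZ, in the order replicate 1 and replicate 2. Nfkbia over Nfkbie was 2.73 and 2.56 in dKO LZ, 2.78 and 2.02 in sKO LZ, 1.89 and 2.18 in dKO DZ and 2.91 and 1.75 in sKO DZ. In both ratios the highest of the 8 libraries was sKO DZ replicate 1, the library in which Fos was at 219 FPKM.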
